A study of Mus musculus with 7 samples.

Results

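The 10 genes described here encode the activators of the circadian clock (Arntl, Clock, Npas2), the Period and Cryptochrome repressors (Per1, Per2, Per3, Cry1, Cry2), and the repressors Nfil3 and Ciart. They were taken by gene symbol from a table of 55401 Ensembl genes measured by RNA sequencing in mouse microglia, and all 10 were found and passed the filter on low counts. The microglia came from the dorsal hippocampus of C57BL/6 mice aged 6 to 8 weeks, which the series title describes as adult males, and were enriched with CD11b beads. AAV-RAM-Cre was injected into the dorsal dentate gyrus of every mouse; the RAM promoter drives Cre in neurons activated by experience. Together with it, 4 libraries (EYFP 1 to 4) came from mice given AAV-Dio-EYFP, a Cre-dependent fluorescent protein, and 3 (ATG7 1 to 3) from mice given AAV-Dio-Atg7-Flag, a Cre-dependent tagged form of the autophagy gene Atg7. The transgene is therefore directed at neurons, while the RNA is that of the bead-enriched cells. The labels give neither the hour at which tissue was taken nor whether a library is 1 mouse or a pool, so p-values measure the spread between these libraries.

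In the mammalian clock, ARNTL (also called BMAL1) pairs with CLOCK or its relative NPAS2 and activates genes through E-box sequences, among them the Per and Cry genes, Ciart, Dbp and the REV-ERB genes Nr1d1 and Nr1d2. PER and CRY proteins return to the nucleus and repress the same pair, and CIART (CHRONO) is a further repressor of it. The REV-ERB proteins compete with the ROR activators at ROR/REV-ERB elements, through which Arntl, Clock, Npas2, Nfil3 and Cry1 are controlled, so that Arntl RNA peaks at an opposite phase to Per and Nr1d1 RNA in most tissues. NFIL3 (E4BP4) represses at D-box sequences, where DBP, TEF and HLF activate.

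These sequence elements are shown because the regulation of the members by one another runs through them. Promoter windows from RefSeq on GRCm38.p6, reaching from 250 bases before to 50 after a transcript start, were found for 9 of the 10 genes (13 windows), all but Per2. In the stretches below, written 5′ to 3′ on the strand of the gene, capitals mark an E-box (CACGTG), a noncanonical E-box (CACGTT, read here on the other strand as AACGTG), a D-box (TTATGTAA) or a ROR/REV-ERB element (TAGGTCA, or TGACCTA on the other strand).
Arntl (chr7:113207529-113207558, + strand): gaaggcagaaagTAGGTCAgggacggaggt
Nfil3 (chr13:52981034-52981063, - strand): ggcgctcggaacTGACCTActaacacacat
Ciart (chr3:95882253-95882358, - strand): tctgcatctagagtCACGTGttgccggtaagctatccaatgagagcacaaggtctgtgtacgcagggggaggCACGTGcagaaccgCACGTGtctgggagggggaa
Per1 (chr11:69098769-69098802, + strand): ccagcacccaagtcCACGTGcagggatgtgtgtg
Per3 (chr4:151044802-151044884, - strand): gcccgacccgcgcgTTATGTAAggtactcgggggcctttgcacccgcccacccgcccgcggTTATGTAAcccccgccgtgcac
Cry1 (chr10:85185095-85185147, - strand): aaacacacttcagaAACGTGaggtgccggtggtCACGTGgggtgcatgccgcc
Cry2 (chr2:92434216-92434249, - strand): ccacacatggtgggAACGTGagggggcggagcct

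Ciart held 3 E-boxes between 116 and 44 bases before its start, in an intron of C920021L13Rik in GENCODE M21. Per1 and Cry1 held 1 each. The Per1 window with the E-box (69098699 to 69098998) lay inside the gene, which begins at 69095217, and the E-box was in an intron of Per1 itself. An E-box was present in 3 of the 13 member windows and in 7.15% of all 32851 windows of this length. Noncanonical E-boxes were found in Cry1 and Cry2, and in 4.68% of all windows. Per3 held 2 D-boxes, a sequence found in 0.938% of all windows, in an intron of the neighbouring gene Camta1. The ROR/REV-ERB element TAGGTCA was present in Arntl and Nfil3 and in 2.61% of all windows. In both genes it lay in a non-coding part of an annotated exon of the gene itself, 31 bases after a start in Arntl and 12 bases before the RefSeq start in Nfil3. The D-box variant TTACGTAA (0.119% of all windows), the element TGGGTCA (3.98%) and the cAMP response element TGACGTCA (1.79%) were searched on both strands and were found in 0 of the 13 windows. Each match describes letters in a window and not a bound site.

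Total counts per library ranged from 35934210 to 55217119, and the lowest count of any member in any library was 89. Atg7 itself was at 35.6 ± 1.68 CPM (read counts per 1000000 of the library, adjusted by a trimmed-mean factor; SD, n = 4) for EYFP and 34.9 ± 2.76 CPM (SD, n = 3) for ATG7. All 10 microglial markers examined were present, with summed levels of 22950.1 to 27851 CPM in EYFP and 22929.6 to 28264 CPM in ATG7. Choroid plexus markers, led by Ttr and Enpp2, were higher still, at 54973 to 72459.8 CPM in EYFP and 46592 to 61330.2 CPM in ATG7. All 8 of them had a negative log2 fold change and 0 passed (edgeR, adjusted p under 0.05; 2 had an unadjusted p under 0.05). Summed neuronal markers lay between 23.9 and 46.1 CPM in EYFP, highest in EYFP 1, and between 29.6 and 31.2 CPM in ATG7. Prox1 made up most of the sum, at a mean of 18.9 CPM in EYFP and 22.4 CPM in ATG7. In EYFP 1, Snap25 was at 6.15 CPM against 0.0665 to 1.20 CPM in the other libraries, and Slc17a7 at 7.16 against 0.177 to 1.96 CPM. Syt1 did not stand apart there (4.10 CPM). The library labelled EYFP 3 stood apart in sex-linked genes, with 938.5 CPM of Xist against 0.151 to 0.574 CPM in the other 6 libraries. Its Y-linked RNA was lower but not absent. Uty was at 7.38 CPM there against 35.5 to 48.0 CPM in the other 6, and Ddx3y at 27.6 against 121 to 169 CPM. Kdm5d (8.09 against 37.9 to 48.4 CPM) and Eif2s3y (13.3 against 50.9 to 69.4 CPM) gave the same picture. EYFP 3 thus held both Xist and Y-linked RNA, and the source of this was not tested. Results are therefore given without EYFP 3 where that matters.

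Across the members, Arntl rose and the other 9 did not pass (quasi-likelihood test of edgeR, Benjamini-Hochberg adjusted p under 0.05 over all 19199 genes tested). Of all genes tested, 0.755% passed. limma-voom also called Arntl alone (0.958% of all genes), a fit with no filter on low counts called 3 members (0.900% of all genes) and the DESeq2 Wald test called 5 (3.43% of all genes). By direction alone, Arntl, Clock, Npas2, Nfil3 and Cry1 were higher in ATG7, and Per1, Per2, Per3, Cry2 and Ciart were lower. The libraries of the groups did not overlap for 6 of the 10 members, against 11.2% of all genes tested. Of these 6, Arntl and Nfil3 were higher in ATG7 (6.33% of all genes) and Per1, Per2, Cry2 and Ciart were lower (4.91% of all genes). In an exact permutation test of each gene, two-sided over 35 arrangements, Arntl, Per1, Per2 and Cry2 reached 0.0286, the smallest p the design allows, as did 5.96% of all genes. The median log2 fold change of the members was -0.09 and that of all genes tested was -0.00365, with 5 members on either side of 0.

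**Figure D1:**
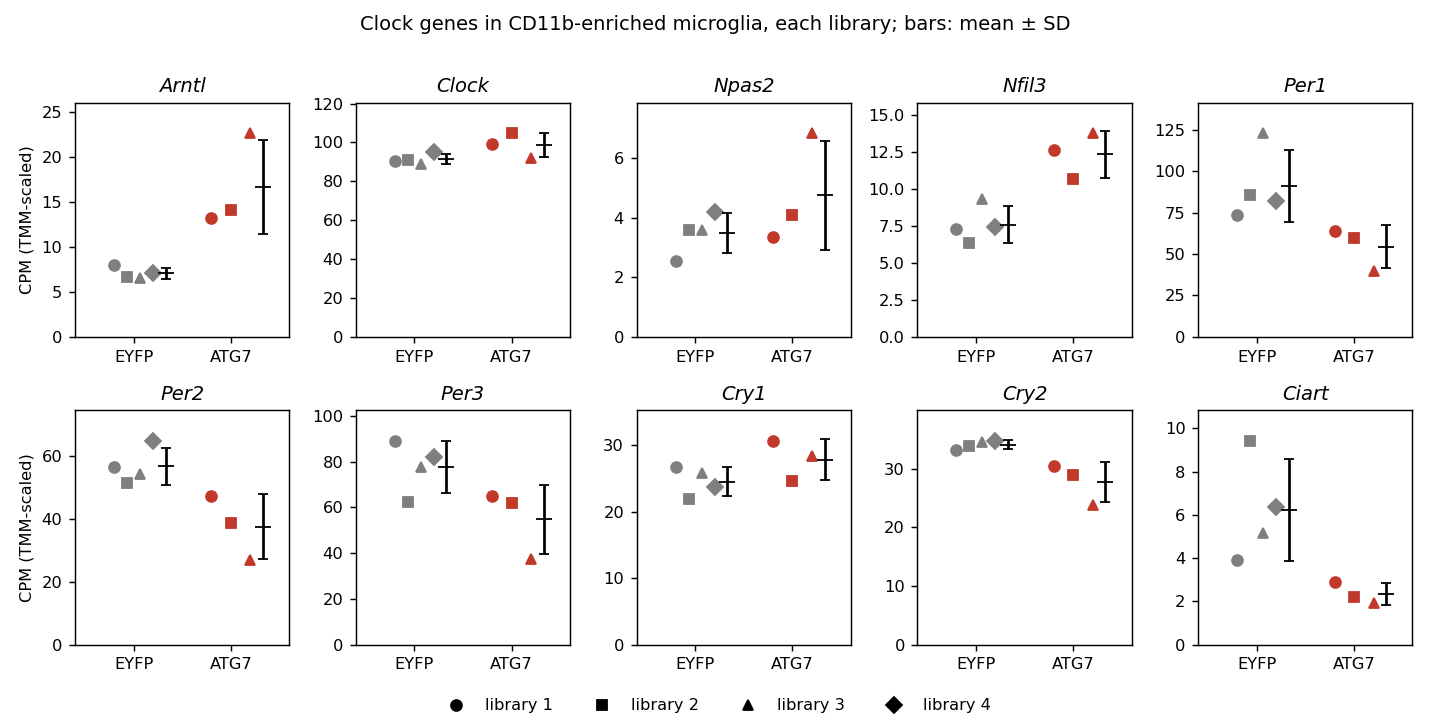
Level of each of the 10 clock genes in every library, in CPM on a linear axis from 0. Grey symbols are the 4 EYFP libraries and red symbols the 3 ATG7 libraries, the symbol shape is the replicate number, and bars give the mean ± SD. The ATG7 libraries lie above the EYFP libraries for Arntl and Nfil3 and below them for Per1, Per2, Cry2 and Ciart.

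Arntl, the activator without which the clock does not run, was at 7.95, 6.61, 6.56 and 7.09 CPM for EYFP 1 to 4. For ATG7 1 to 3 it was at 13.2, 14.1 and 22.6 CPM. Every ATG7 library was above every EYFP library, and the EYFP libraries lay close together while ATG7 3 was well above the other ATG7 libraries. The means of EYFP and ATG7 were 7.05 ± 0.644 CPM (SD, n = 4) and 16.6 ± 5.21 CPM (SD, n = 3), giving a log2 fold change of 1.24 ± 0.177 (SE), or 2.36-fold higher (edgeR adjusted p = 0.0122). The gene (ENSMUSG00000055116) lies at chromosome 7, 113207465 to 113314126, on GRCm38. Without EYFP 3 the log2 fold change was 1.20 (edgeR adjusted p = 0.0251), and without ATG7 3 it was 0.94 (adjusted p = 0.0423). The call was lost without EYFP 4 (adjusted p = 0.0545, log2 fold change 1.24). It was also lost with the choroid plexus markers as a covariate (log2 fold change 1.08, adjusted p = 0.185), and the part of these markers in the result was not tested further. In a bulk library of this kind, a change in the number of expressing cells and a change in RNA per cell cannot be told apart.

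Neither gene for a partner of ARNTL passed the test. Clock (ENSMUSG00000029238; chromosome 5, 76209868 to 76304792), which encodes the usual partner, was at 90.4, 91.2, 89.2 and 94.9 CPM in EYFP libraries and 99.4, 105 and 92.3 CPM in ATG7. Its EYFP range was narrow, and ATG7 3 lay within it. The log2 fold change was 0.11 ± 0.0679 (SE; edgeR adjusted p = 0.578), and it was 0.07 without ATG7 2. Npas2 (ENSMUSG00000026077; chromosome 1, 39193731 to 39363236), the alternative partner, was the lowest member per length and was at 2.54, 3.60, 3.59 and 4.17 CPM in EYFP libraries and 3.35, 4.10 and 6.82 CPM in ATG7. Only ATG7 3 stood above the EYFP range, and the log2 fold change of 0.45 ± 0.252 (SE; edgeR adjusted p = 0.535) was 0.09 without that library. Whether Arntl differed from Clock or Npas2 in its response was not tested.

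Nfil3 (ENSMUSG00000056749; chromosome 13, 52967209 to 52981073), the D-box repressor, was at 7.29, 6.34, 9.36 and 7.41 CPM in EYFP libraries and 12.7, 10.6 and 13.8 CPM in ATG7. The groups did not overlap, and EYFP 3 was the EYFP library nearest to ATG7. The log2 fold change was 0.70 ± 0.147 (SE; 1.62-fold, edgeR adjusted p = 0.0618, exact permutation p = 0.0571). Nfil3 thus stood just outside the threshold. It passed without EYFP 3 (log2 fold change 0.81, edgeR adjusted p = 0.0293) and with no filter on low counts (adjusted p = 0.00667). It also passed with the DESeq2 Wald test (adjusted p = 0.00120). In the other 12 of 15 alternatives it did not pass, with the highest adjusted p at 0.314 (edgeR, choroid plexus covariate).

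Ciart (ENSMUSG00000038550; chromosome 3, 95878503 to 95882251) had the largest difference among the members by size. It was at 3.91, 9.42, 5.14 and 6.38 CPM in EYFP libraries and 2.90, 2.18 and 1.91 CPM in ATG7. The groups did not overlap, and the EYFP libraries were widely spread, with EYFP 1 nearest to ATG7 and EYFP 2 farthest from it. The log2 fold change was -1.42 ± 0.287 (SE; 2.68-fold lower, edgeR adjusted p = 0.0523, exact permutation p = 0.0571), so the adjusted p lay just above the threshold. It passed without EYFP 1 (log2 fold change -1.59, adjusted p = 0.0111), with no filter (adjusted p = 0.0206) and with DESeq2 (adjusted p = 8.42e-05). In the other 12 of 15 alternatives it did not pass. With the choroid plexus covariate the log2 fold change was -0.79 (edgeR adjusted p = 0.273), the widest move of any member under that setting.

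The Period genes encode the rate-limiting repressors of the loop, and Per1 and Per2 are also induced directly by external signals such as glucocorticoids. Per1 (ENSMUSG00000020893; chromosome 11, 69095217 to 69109960) was at 73.7, 85.9, 123 and 82.1 CPM in EYFP libraries and 63.7, 59.9 and 39.9 CPM in ATG7. All ATG7 libraries were lower than all EYFP libraries, EYFP 3 was the highest and ATG7 3 the lowest. The log2 fold change was -0.74 ± 0.214 (SE; edgeR adjusted p = 0.217), and it was -0.57 without EYFP 3 (adjusted p = 0.179). Per2 (ENSMUSG00000055866; chromosome 1, 91415982 to 91459324) was at 56.7, 51.4, 54.3 and 64.9 CPM in EYFP libraries and 47.3, 38.7 and 26.9 CPM in ATG7, again without overlap. Its log2 fold change was -0.60 ± 0.166 (SE; edgeR adjusted p = 0.179). The summed level of 13 glucocorticoid-responsive genes, led by Sgk1, was 1098 to 1473 CPM in EYFP, highest in EYFP 3, and 982 to 1073 CPM in ATG7. The part of this response in the Per1 and Per2 values was not tested. DESeq2 placed both Per1 and Per2 under the threshold (adjusted p = 0.00531 for Per1 and 0.0165 for Per2). Neither passed in any other of the 15 alternatives.

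Per3 (ENSMUSG00000028957; chromosome 4, 151003652 to 151044665), the Period gene that is dispensable for the core loop, was at 89.0, 62.3, 77.6 and 82.0 CPM in EYFP libraries and 64.8, 62.0 and 37.4 CPM in ATG7. EYFP 2 lay among the ATG7 libraries, so the groups overlapped. The log2 fold change was -0.51 ± 0.194 (SE; edgeR adjusted p = 0.348), and -0.30 without ATG7 3. In each Period gene ATG7 3 was the lowest of the 7 libraries.

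The Cryptochromes are the direct repressors of the CLOCK and ARNTL pair, and the genes lay on opposite sides of 0. Cry1 (ENSMUSG00000020038; chromosome 10, 85131700 to 85185064) was at 26.7, 21.9, 25.8 and 23.6 CPM in EYFP libraries and 30.6, 24.6 and 28.3 CPM in ATG7, with overlap (log2 fold change 0.18 ± 0.0996 (SE), edgeR adjusted p = 0.521; 0.11 without ATG7 1). Cry2 (ENSMUSG00000068742; chromosome 2, 92403646 to 92434043) was at 33.1, 33.9, 34.5 and 34.7 CPM in EYFP libraries and 30.4, 29.0 and 23.8 CPM in ATG7. Its EYFP libraries differed little, and every ATG7 library was below them (log2 fold change -0.30 ± 0.0901 (SE), edgeR adjusted p = 0.201). Neither passed with edgeR or DESeq2. The log2 ratio of Cry1 to Cry2 CPM was -0.31, -0.63, -0.42 and -0.55 in EYFP and 0.01, -0.24 and 0.25 in ATG7. The ratio did not overlap between the groups, and it is given as a description with no test.

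**Figure D2:**
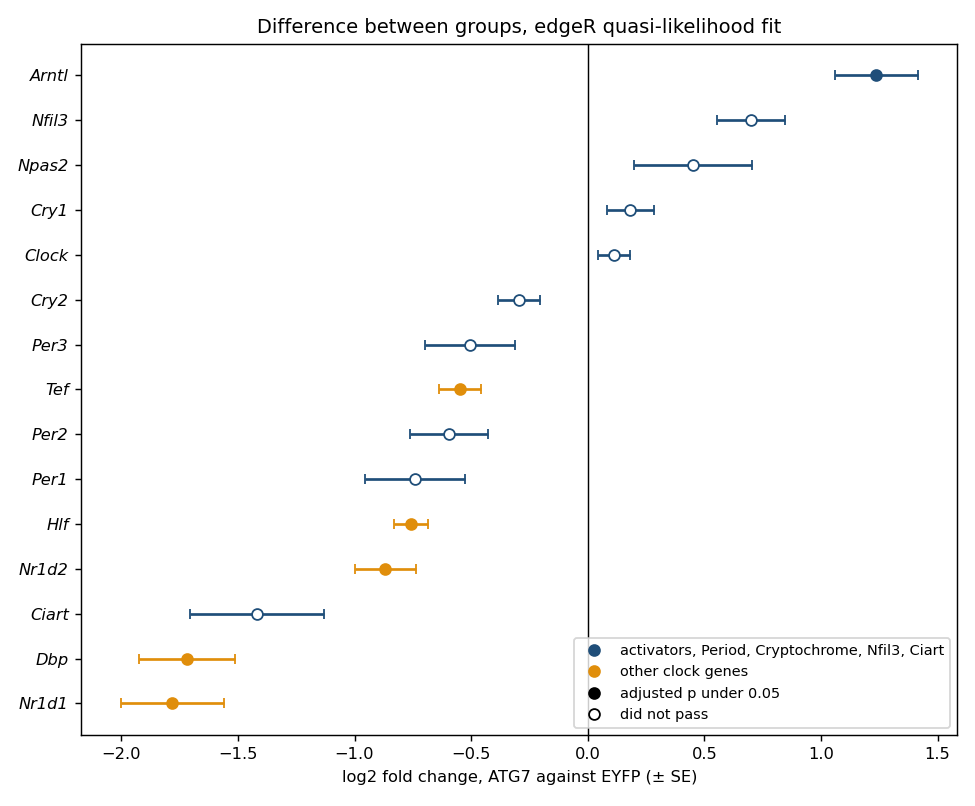
Log2 fold change of ATG7 against EYFP with its SE for the 10 members (blue) and for the other clock genes that passed (orange). Filled points passed at an adjusted p under 0.05. Arntl is the filled member at the top (1.24), and Nr1d1 (-1.78) and Dbp (-1.72) are the lowest points.

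How far the libraries lay apart was itself uneven. ATG7 3 was the ATG7 library farthest from the EYFP group in 8 of the 10 members, and ATG7 1 was the nearest in 7. Among the EYFP libraries, EYFP 1 was nearest to ATG7 in 5 members. Leaving out ATG7 3 made the log2 fold change of Per1 -0.57 and of Per2 -0.41, and no member changed sign without any 1 library. The coefficient of variation within EYFP ranged from 2.16% for Cry2 and 2.70% for Clock to 38.1% for Ciart. For Arntl it was 9.13% in EYFP and 31.3% in ATG7. ATG7 3 did not have the highest or the lowest summed choroid plexus level of the 7 libraries (55219 CPM), and its summed microglial level was the highest at 28264 CPM. It was also the highest of the 7 libraries in the summed level of 8 endothelial and pericyte markers, at 947 CPM against 403 to 742 CPM in the others. The same held for the sum of 8 markers of border macrophages and blood myeloid cells, at 606 CPM against 440.0 to 553 CPM. S100a8 was at 32.2 CPM there against 5.39 to 17.8 CPM, and S100a9, Ly6c2, Mrc1 and Ccr2 were also highest in ATG7 3. Cd163 (92.2 CPM), Lyve1 (45.7 CPM) and Pf4 (24.2 CPM) of the same list were not. In the endothelial and the myeloid list, 0 markers passed in either direction (edgeR, adjusted p under 0.05; 1 of each had an unadjusted p under 0.05). The summed astrocyte, oligodendrocyte and neuronal levels of ATG7 3 (437, 292 and 29.6 CPM) lay within the EYFP ranges. Of the 7 astrocyte markers, 4 were lower in ATG7 and 3 higher, and 0 passed. Slc7a10 (log2 fold change -0.57) and Aldh1l1 (-0.32) had an unadjusted p under 0.05 (edgeR). Of the markers tested, 7 of 8 oligodendrocyte lineage and 6 of 7 neuronal ones were lower, and 8 of 10 microglial ones were higher. In these 3 lists 0 passed and 0 had an unadjusted p under 0.05. The part of these cells in the levels of the clock genes was not tested.

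Levels of different members were compared as CPM per kilobase of exon, with lengths from GENCODE M21. Per1 was the highest (13.4 over the 7 libraries, range 7.09 to 21.8), followed by Per2 (8.30), Cry1 (7.76), Per3 (7.06) and Clock (6.89). Cry2 (4.96), Nfil3 (4.76), Ciart (2.01), Arntl (1.48) and Npas2 (0.840) followed. Among neighbours in this order only Clock (6.49 to 7.62) and Cry2 (3.77 to 5.49) had ranges that did not overlap. Arntl was therefore among the least abundant members, and below its partner Clock in every library. In EYFP it stood at 0.938 ± 0.0856 (SD, n = 4) CPM per kilobase against 2.75 ± 1.05 (SD, n = 4) for Ciart, and in ATG7 at 2.21 ± 0.692 (SD, n = 3) against 1.03 ± 0.225 (SD, n = 3), so their order by mean was exchanged.

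**Figure D3:**
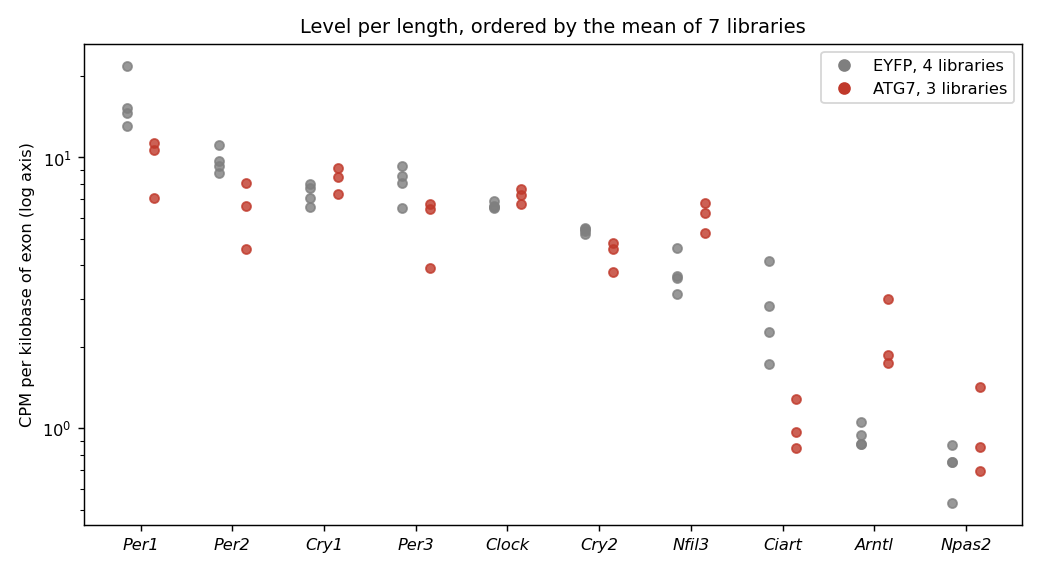
CPM per kilobase of exon for each member on a log axis, in every library, ordered by the mean of 7 libraries. Grey points are EYFP and red points ATG7. Per1 is highest and Npas2 lowest, and Ciart and Arntl exchange their order between the groups.

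Other genes of the clock were taken from a list of 36, of which 35 were matched and tested. In ATG7 5 fell and 0 rose at an adjusted p under 0.05 (edgeR), against 0.0677% of all genes lower and 0.688% higher. The 5 were Nr1d1 and Nr1d2, which encode the REV-ERB repressors of Arntl, and Dbp, Tef and Hlf, the D-box activators. Their log2 fold changes were -1.78, -0.87, -1.72, -0.55 and -0.76. Among those that did not pass were Wee1 (log2 fold change -0.36, edgeR adjusted p = 0.191), a cell cycle kinase under clock control, and Hdac3 (-0.21, adjusted p = 0.208), the deacetylase recruited by REV-ERB. The median log2 fold change of the 35 was -0.07. Among the kinases that act on PER proteins, Csnk1d was at a log2 fold change of 0.03 (SE 0.0765) and Csnk1e at -0.06 (SE 0.0882). Neither passed, with adjusted p of 0.935 and 0.843 (edgeR). Gsk3b, another kinase of the list, was at -0.13 (SE 0.0625) and did not pass either (edgeR adjusted p = 0.432). It was lower in every ATG7 library than in any EYFP library, as were 4.91% of all genes tested.

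Within a library, the ratio of Arntl to Nr1d1 sets an activator against the repressor of its own gene. The log2 ratio of their CPM was -1.26, -2.47, -1.92 and -2.12 for EYFP 1 to 4, and 0.49, 0.75 and 1.78 for ATG7 1 to 3. The ratio was higher in every ATG7 library than in any EYFP library. Its highest EYFP value was in EYFP 1 and its highest ATG7 value in ATG7 3. The log2 ratio of Nfil3 to Dbp, which act on the same D-boxes in opposite ways, was -2.73, -3.70, -2.67 and -3.39 in EYFP and -0.85, -1.07 and -0.22 in ATG7. The ratios were formed from genes whose differences were known and carry no test.

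**Figure D4:**
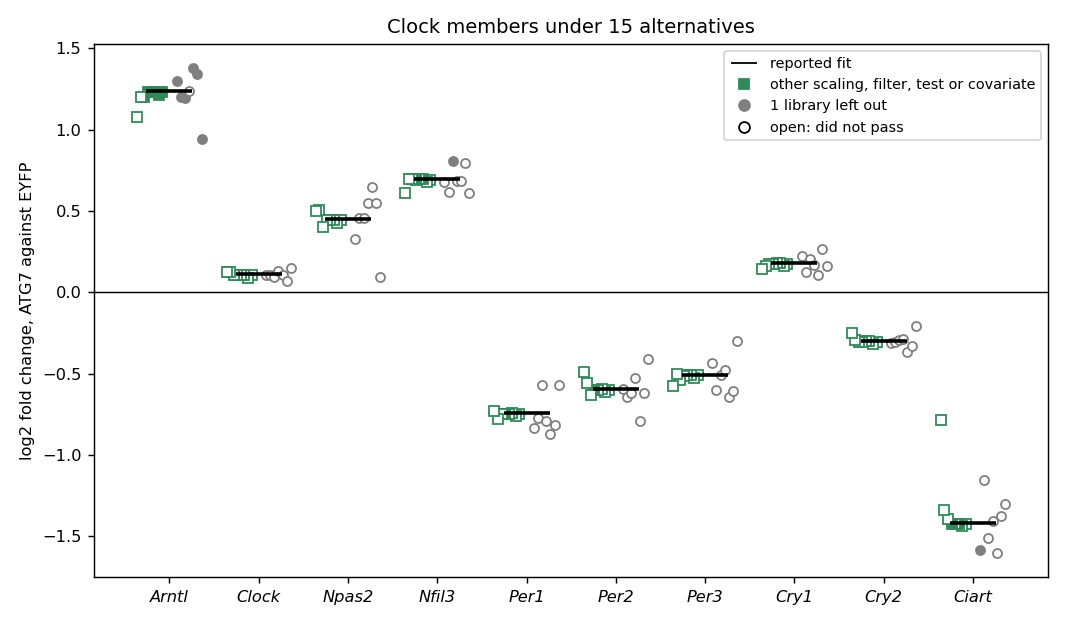
Log2 fold change of each member in the reported fit (black bar), with other scalings, filters, tests, a block or a covariate (green squares), and with 1 library left out (grey circles). Filled symbols passed at an adjusted p under 0.05. No symbol crosses 0, Arntl passes in 12 of 15 alternatives, and Clock, Npas2, Per3, Cry1 and Cry2 pass in none.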

How the data were processed

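The authors deposited raw counts per Ensembl gene for the 7 libraries. The submitters' processing notes name fastp 0.20.1, HISAT2 2.0.5 and featureCounts with mm10/GRCm38. Settings, strand handling and annotation release are not given in the sources used here. Exons of Arntl share 33 bases with Gm45355 and those of Cry2 share 295 bases with D930015M05Rik in GENCODE M21, so reads there could be assigned to either gene or dropped.

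Symbols, coordinates and exon lengths came from GENCODE M21 (55141 of 55401 identifiers matched, 0 unmatched sample columns). Counts were fitted on the whole table with edgeR 4.0.16 in R 4.3.3: TMM factors, filterByExpr, robust quasi-likelihood test, group as the factor, Benjamini-Hochberg adjustment over 19199 genes. SE is |log2 fold change| over root F. The code was first checked on simulated counts. Alternatives were other scalings, filters, DESeq2 1.42.0, limma-voom (limma 3.58.1), a replicate block, a choroid plexus covariate and leaving out each library. A floor of 3 counts equals 0.0543 to 0.0835 CPM, for counting error only. Libraries of a group differed beyond sampling noise (chi-square 19.2 to 41.3 per degree of freedom).

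The members and the gene lists were chosen with earlier results of these data known. All members are named, with every other clock gene that passed and those nearest to passing, except results that are not reported here. The kinases were named after their values were seen. Of each marker list, counts are given.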

Additional observations from a re-analysis of the deposited data

How the results depend on the processing

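Over the 15 alternatives and the 15 clock genes named as members or as passing, 195 values kept their direction and call, 22 lost a call, 8 gained a call and 0 reversed. The number of members that differed was 1 (Arntl) as reported, 3 with no filter (Arntl, Nfil3 and Ciart, where 0.900% of all genes passed), 5 with the DESeq2 Wald test (these and Per1 and Per2, where 3.43% passed), and 0 with the replicate block or the choroid plexus covariate. Leaving out 1 library gave 0 to 2 members, with 0 without EYFP 4, and 2 without EYFP 1 (Arntl and Ciart) and without EYFP 3 (Arntl and Nfil3). The number of other clock genes was 5 as reported, 3 without a filter, 0 with the replicate block, 2 with the choroid plexus covariate (Hlf and Nr1d1) and 1 to 5 with 1 library left out, with 1 (Hlf) without ATG7 2, and 3 without ATG7 3 or EYFP 4. Of all genes, 145 differed as reported (132 higher, 13 lower), 297 with no filter (234 higher, 63 lower), 582 with DESeq2 (406 higher, 176 lower), 0 with the block, 9 with the covariate (7 higher, 2 lower), and 28 to 277 with 1 library left out: 277 without EYFP 1, 94 without EYFP 2, 30 without EYFP 4, 28 without ATG7 2 and 30 without ATG7 3. The cause of these moves was not tested.

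The replicate block gave Arntl a log2 fold change of 1.20 (edgeR adjusted p = 0.223). Same-numbered libraries had correlations of their deviations from the group means of -0.06, -0.18 and 0.07. Those of differently numbered libraries ranged from -0.15 to 0.22. The values show no pairing by number, but with so few libraries they cannot exclude it, and the labels do not state whether libraries were paired. Over all genes, the median difference lay between -0.0243 and 0.00308 on the log2 scale across the settings.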

Other observations

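Per1 is known to respond to glucocorticoids and to the signals that induce immediate-early genes, and lists of both responses were read beside it. Of 12 glucocorticoid-responsive genes tested, 10 were lower in ATG7 and 0 of these passed. An unadjusted p under 0.05 (edgeR) was reached by 5 of the 12, among them Cdkn1a, which was higher. Fewer than 2435 of all 19199 genes tested reached it, the rank of Gsk3b at an unadjusted p of 0.0549 (edgeR). Cdkn1a, a cell cycle inhibitor, rose by a log2 fold change of 0.80 ± 0.115 (SE; edgeR adjusted p = 0.0133). The member of the list with the next smallest p was Mt1 (log2 fold change -0.25, adjusted p = 0.268). The median log2 fold change of the list was -0.27, against -0.00365 for all genes tested. The summed level of all 13 genes of the list, with the untested Mt2, was 1098 to 1473 CPM in EYFP and 982 to 1073 CPM in ATG7. The sums did not overlap between the groups. Of the 12 genes tested, 1 was higher without overlap (Cdkn1a) and 1 lower (Mt1), against 11.2% of all genes tested in either direction. The highest sum was that of EYFP 3, the library with the highest Per1, while Per2 was highest in EYFP 4.

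Of 13 immediate-early genes tested, 0 passed (edgeR; 0 also had an unadjusted p under 0.05), 11 were higher in ATG7 and the median log2 fold change was 0.15. Their summed level, led by Jun, Junb and Fos, was 2131 to 3296 CPM in EYFP and 2872 to 2955 CPM in ATG7, with the ATG7 libraries inside the EYFP range. The 2 with the smallest p were Egr2 (0.47, edgeR adjusted p = 0.427) and Junb (0.21, adjusted p = 0.610). The part of either response in the levels of the clock genes was not tested.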
